A study of Mus musculus with 16 samples.

Results

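The genes described here are 37 mouse genes of the presynaptic release machinery and its partners: calcium sensors, synaptic vesicle proteins, SNARE proteins and their regulators, active zone and priming factors, endocytic adaptors and synaptic adhesion molecules. They were chosen by gene symbol, and where a gene had several probe sets with exactly 1 gene symbol, the probe set with the highest mean over all 16 arrays was used. These genes and the other gene lists used below were chosen with earlier results of these data known. Their counts beside the shares of all genes are therefore descriptive only. Of the 37 genes, 36 were measured among 19938 genes on the array. Vamp2 is the exception: the probe set that lists it lists another gene as well, so it was not analysed here. No filter on low values was applied, and none of the 36 stood below 4.32, the lowest of the arrays' lower quartiles, on all 16 arrays. A gene that is high in 1 group only meets this, so it does not show detection in every group.

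Cells of 4 kinds were profiled on Affymetrix arrays. The WNT1 and DKK3 group (5 biological replicates, called treated below) held cells labelled as midbrain dopaminergic (mdDA) neurons, derived from mouse induced pluripotent stem cells (iPSC) and differentiated with recombinant human WNT1 and DKK3, and the control group (5 biological replicates) held iPSC-derived cells, labelled as the same neurons, made without either protein. Primary mdDA neurons were taken from embryonic ventral midbrain at E14.5 (3 technical arrays) and E13.5 (3 technical arrays), sorted for green fluorescent protein (GFP). All 4 groups carried the Pitx3GFP/+ genotype on a mixed C57BL/6 x 129/Ola background, so every group was heterozygous at Pitx3, a transcription factor gene of these neurons, and none was wild type at Pitx3. The series' design text also calls the iPSC-derived cells sorted for GFP. The labels do not say how many iPSC lines, cultures or animals stood behind the replicates, and each embryonic stage was 1 sample. Values are log2 signals, on which a difference of 1 is a 2-fold change. Array medians lay between 5.85 and 6.02.

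A nerve terminal stores transmitter in vesicles that are tethered by synapsins, carried to the active zone with Rab3 GTPases, primed there by RIM, Munc13 and CAPS proteins and fused by the SNARE proteins SNAP-25, syntaxin and synaptobrevin. Synaptotagmins sense the calcium that enters at the active zone and trigger fusion, complexins hold and release the SNARE complex, and clathrin adaptors recover the membrane. Dopaminergic neurons use the same machinery at axonal varicosities and release from their dendrites as well, and many genes of the machinery come on as neurons leave the cell cycle and grow axons.

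Promoter windows from 250 bases before to 50 bases after the start were taken from RefSeq (GRCm38.p6), which gave 38 windows for 28 of the 37 genes. They were searched on both strands for TTCAGCACC, the left part of the RE1 element bound by REST, a repressor of neuronal genes outside neurons, for TGACGTCA, the cAMP response element, and for GGGCGG, a GC box. TTCAGCACC was in 0.371% of 32851 windows and in 3 of the 38 member windows, TGACGTCA in 1.79% and in 1, and GGGCGG in 35.7% and in 23. Shown are the 3 windows with the RE1 part, which belong to Syn1, Nlgn1 and Unc13a, and that of Sypl, the member with the largest difference in the opposite direction to most. Syn1 is at chrX:20920869-20921168 on the minus strand, Nlgn1 at chr3:26153937-26154236 on the minus strand (1 of 2 windows), Unc13a at chr8:71671708-71672007 on the minus strand and Sypl at chr12:32953695-32953994 on the plus strand (1 of 2 windows). Each is written 5′ to 3′ in the direction of the gene. Capitals mark the RE1 part at bases 19 to 27 and the cAMP response element at bases 92 to 99 in Syn1, the RE1 part at bases 98 to 106 in Nlgn1, the RE1 part on the opposite strand at bases 273 to 281 in Unc13a and the GC box at bases 70 to 75 in Sypl. The Unc13a window also holds GGGCGG on the opposite strand, left in lower case. A match describes these letters only and is not a measured binding site.
Syn1: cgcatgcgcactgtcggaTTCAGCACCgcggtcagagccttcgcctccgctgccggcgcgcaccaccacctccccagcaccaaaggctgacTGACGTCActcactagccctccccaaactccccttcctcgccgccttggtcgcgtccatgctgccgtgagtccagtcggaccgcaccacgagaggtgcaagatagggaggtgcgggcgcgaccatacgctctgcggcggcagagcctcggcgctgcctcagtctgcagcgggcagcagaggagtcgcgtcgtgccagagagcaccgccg
Nlgn1: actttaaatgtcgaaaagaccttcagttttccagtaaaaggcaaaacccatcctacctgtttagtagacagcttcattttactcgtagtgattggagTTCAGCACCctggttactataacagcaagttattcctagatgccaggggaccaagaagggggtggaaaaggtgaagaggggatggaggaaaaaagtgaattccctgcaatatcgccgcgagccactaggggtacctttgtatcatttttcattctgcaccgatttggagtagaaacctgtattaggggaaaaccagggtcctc
Unc13a: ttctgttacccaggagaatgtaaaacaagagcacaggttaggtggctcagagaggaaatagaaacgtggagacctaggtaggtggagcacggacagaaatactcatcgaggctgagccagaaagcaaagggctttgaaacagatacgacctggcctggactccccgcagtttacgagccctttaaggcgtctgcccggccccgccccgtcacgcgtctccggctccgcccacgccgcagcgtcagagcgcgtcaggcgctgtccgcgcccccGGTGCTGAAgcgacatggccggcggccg
Sypl: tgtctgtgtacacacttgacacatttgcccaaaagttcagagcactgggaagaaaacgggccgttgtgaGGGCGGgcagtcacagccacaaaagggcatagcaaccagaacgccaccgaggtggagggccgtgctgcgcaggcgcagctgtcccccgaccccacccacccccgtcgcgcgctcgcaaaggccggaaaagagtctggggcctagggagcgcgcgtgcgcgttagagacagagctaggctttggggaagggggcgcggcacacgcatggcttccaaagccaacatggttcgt

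The first question was how far the iPSC-derived cells carried the release machinery of primary mdDA neurons. Most of the machinery was lower in both iPSC-derived groups. In treated cells 29 of 36 genes were lower than in primary neurons, 2 were higher (Sypl and, for 1 of its 3 probe sets, Unc13a) and 5 did not pass (limma, Benjamini-Hochberg adjusted p under 0.05 over all genes), where 21.3% of all genes were lower and 19.9% higher. In control cells it was also 29 lower, 2 higher and 5 not passed, where 22.5% of all genes were lower and 19.3% higher, and 28 of the 29 were lower by at least 1 (7.91% of all genes). The median difference of the 36 genes was -1.88 in treated and -1.86 in control cells, beside -0.09 and -0.11 over all genes. Both comparisons share the primary samples and 1 estimate of the spread, so they are given side by side and not as repeats of each other. With E13.5 alone as the primary sample, 5 of the 29 lower genes did not pass in control cells: adjusted p was 0.0503 for Syt1, 0.072 for Syp, 0.0627 for Sv2b, 0.0522 for Snap25 and 0.0755 for Cadps2. Without E13.5 array 3, which stood apart for several members, no member's call changed.

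Groups separated array by array for most members. For 27 of 36 genes all 10 iPSC-derived arrays lay below all 6 primary arrays, as they did for 12.7% of all genes. For 1 of 36, Sypl, all 10 lay above all 6, as for 14.1% of all genes. The mean level over the 36 genes was 6.23, 6.04, 6.14, 6.01 and 7.18 on treated arrays 1 to 5 and 6.25, 6.17, 6.11, 6.05 and 6.94 on control arrays 1 to 5, against 8.30, 8.41 and 8.39 on E14.5 arrays and 8.38, 8.36 and 8.12 on E13.5 arrays. Array 5 of each iPSC-derived group stood above the other 4, and no iPSC-derived array reached the primary range. When the arrays were shifted to the same median, the median over all genes moved to -0.30 in both comparisons, the share of higher genes among those that passed moved to 25.8% in treated cells (48.3% as deposited) and to 25.6% in control cells (46.2% as deposited), and 32 members were lower in treated and 33 in control cells, beside 8787 and 8833 of all 19938 genes.

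**Figure D1:**
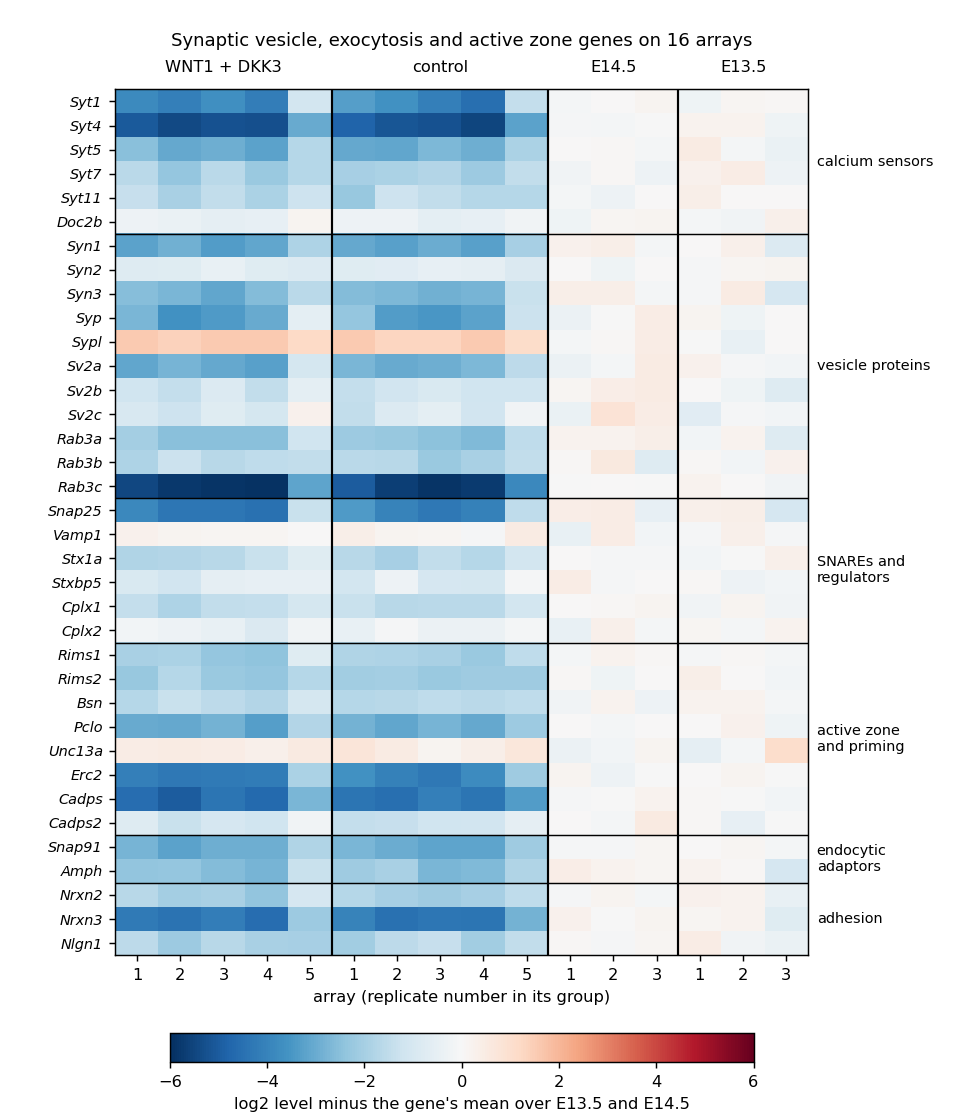
Heat map of the log2 level of the 36 measured genes (rows, by role) on each of the 16 arrays (columns: treated, control, E14.5, E13.5), as the difference from the gene's mean over the 6 primary arrays. Most rows are below the primary mean on iPSC-derived arrays 1 to 4, paler on arrays 5, and Sypl runs the other way.

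Markers of cell types moved with the comparison. All 10 pan-neuronal markers were lower in both iPSC-derived groups, with a mean level of 6.23 to 6.54 on treated arrays 1 to 4, 8.36 on treated array 5, 6.27 to 6.70 on control arrays 1 to 4 and 8.02 on control array 5, against 10.63 to 10.73 at E14.5 and 10.65 to 10.85 at E13.5. All 9 dopaminergic markers were lower as well. Th, the rate-limiting enzyme of dopamine synthesis, was at 6.36 ± 1.62 in treated cells and 6.33 ± 1.26 in control cells (SD, n = 5 each), against 11.23 in primary neurons. Tubb3 (neuronal tubulin) was at 7.79 ± 1.33 in treated cells and 7.96 ± 1.12 in control cells, against 11.86, and Dcx (doublecortin) at 5.94 ± 1.10 in treated cells and 6.04 ± 0.80 in control cells, against 10.92. Slc6a3, the dopamine transporter, was at 5.79 ± 1.73 in treated cells and 5.75 ± 1.51 in control cells, against 8.93. On 8 of the 10 iPSC-derived arrays the defining dopaminergic markers thus stood far below their primary level, with list means of 5.73 to 6.07 against 9.52 to 9.98.

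Markers of some other cell types ran the other way. All 7 mesenchyme markers were higher, with mean levels of 9.15 to 10.08 in treated and 9.36 to 10.22 in control cells, against 5.57 to 5.82 in primary neurons, and 7 of 8 glial and all 4 epithelial markers were higher. Of 6 neuroendocrine markers, whose cells share the release machinery, 4 were lower and 2 did not pass. All 3 GABAergic and 2 of 4 glutamatergic markers were lower in both iPSC-derived groups. Higher in both were 2 of 5 muscle, 2 of 4 endothelial and 1 of 4 oligodendrocyte markers. Of 4 microglia markers, 1 was higher and 1 lower. Over all genes 19.9% were higher and 21.3% lower in treated cells, and 19.3% higher and 22.5% lower in control cells. The oligodendrocyte and microglia counts are near these shares. Dcn, a matrix proteoglycan, was at 11.30 ± 0.39 in treated cells and 11.50 ± 0.35 in control cells, against 5.82. Gja1, a gap junction protein from the glial list, was at 11.07 ± 0.25 in treated cells and 11.13 ± 0.23 in control cells, against 5.46. None of 7 pluripotency markers passed in limma, though all 7 lay above their primary level in both iPSC-derived groups. Their median difference was 1.91 in treated and 1.99 in control cells, and the smallest adjusted p 0.0513 and 0.0502. They averaged 7.21 to 8.62 on iPSC-derived arrays 1 to 4, against 5.41 to 5.88 on primary arrays. Treated and control array 5 averaged 5.48 and 5.51. Nanog was at 8.47 ± 1.34 in treated cells and 8.47 ± 1.18 in control cells, against 6.18. The part of these cells in the differences of the release genes was not tested. In bulk RNA, fewer cells of a type and less RNA per cell cannot be told apart.

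Among the genes listed as calcium sensors, 5 of 6 were lower in both iPSC-derived groups. This list includes Syt11, a synaptotagmin that lacks calcium binding. Syt4, a synaptotagmin of dense-core and other secretory vesicles, was at 5.51, 5.12, 5.34, 5.28 and 7.55 on treated arrays 1 to 5 and at 5.76, 5.42, 5.32, 5.07 and 7.35 on control arrays 1 to 5, against 10.49, 10.46 and 10.51 on E14.5 arrays and 10.79, 10.79 and 10.29 on E13.5 arrays. Arrays 5 stood between the other iPSC-derived arrays and the primary ones, and no iPSC-derived array overlapped a primary one. Its difference from primary neurons was -4.79 in treated cells (SE 0.66, adjusted p = 0.000101) and -4.77 in control cells (SE 0.66, adjusted p = 0.000102). Syt1, the sensor of fast synchronous release, was at 5.35, 5.09, 5.52, 5.06 and 8.08 on treated arrays 1 to 5 and at 5.87, 5.57, 5.09, 4.67 and 7.76 on control arrays 1 to 5, against 9.06, 9.22 and 9.34 on E14.5 arrays and 8.94, 9.32 and 9.28 on E13.5 arrays. Again only arrays 5 came near the primary range, without reaching it. Its difference was -3.37 in treated cells (SE 0.84, adjusted p = 0.00694) and -3.40 in control cells (SE 0.84, adjusted p = 0.00658).

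Syt5, another calcium-binding synaptotagmin, differed by -2.68 in treated and -2.73 in control cells. Syt7, a high-affinity sensor of slow release, differed by -1.88 in treated and -1.86 in control cells, and Syt11, which lacks calcium binding, by -1.59 in treated and -1.68 in control cells. All 3 had adjusted p-values of at most 0.000301. Arrays 5 of these genes were mixed: Syt5 was at 6.95 and 6.75 on treated and control array 5, above every other array of its group, while Syt7 and Syt11 on array 5 were not above the rest in both groups. Doc2b, a soluble calcium sensor of spontaneous release, did not pass, at 5.34, 5.24, 5.08, 5.13 and 5.80 on treated arrays 1 to 5 and at 5.33, 5.33, 5.03, 5.15 and 5.44 on control arrays 1 to 5, against 5.35, 5.75 and 5.81 on E14.5 arrays and 5.54, 5.41 and 5.94 on E13.5 arrays. Its groups overlapped, with a difference of -0.31 in treated cells (SE 0.18, adjusted p = 0.168) and -0.38 in control cells (SE 0.18, adjusted p = 0.103).

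Of 11 vesicle proteins, 9 were lower, 1 was higher and 1 did not pass in either iPSC-derived group. Rab3c, a GTPase that rides on vesicles, had the largest difference of all 36 genes. It was at 4.73, 4.40, 4.28, 4.24 and 7.03 on treated arrays 1 to 5 and at 5.19, 4.55, 4.28, 4.44 and 6.33 on control arrays 1 to 5, against 10.16, 10.21 and 10.16 on E14.5 arrays and 10.39, 10.22 and 9.96 on E13.5 arrays. Its difference was -5.25 in treated cells (SE 0.70, adjusted p = 8.11e-05) and -5.23 in control cells (SE 0.70, adjusted p = 8.19e-05). Treated arrays 1 to 4 and control arrays 2 to 4 lay about the lower quartiles of the arrays (4.32 to 4.70) and no detection call was used, so Rab3c was not shown to be above background there and the size of its difference is limited. Within the Rab3 family, Rab3a, the main neuronal form, differed by -2.16 in treated and -2.21 in control cells and Rab3b, a form also present in secretory cells, by -1.58 in treated and -1.79 in control cells. Rab3b was at 6.66, 7.23, 6.85, 6.98 and 7.03 on treated arrays 1 to 5 and at 6.92, 6.87, 6.32, 6.56 and 7.03 on control arrays 1 to 5, against 8.59, 9.10 and 7.76 on E14.5 arrays and 8.58, 8.35 and 8.78 on E13.5 arrays. Arrays 5 lay within the range of the other treated arrays or just above the other control arrays, and all 10 lay below all primary arrays.

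The synapsins, which tether vesicles in the reserve pool, were lower without exception. Syn1 was at 5.74, 6.08, 5.61, 5.83 and 7.09 on treated arrays 1 to 5 and at 5.88, 5.71, 5.96, 5.71 and 6.96 on control arrays 1 to 5, against 9.20, 9.28 and 8.85 on E14.5 arrays and 8.99, 9.28 and 8.12 on E13.5 arrays. Its difference was -2.88 in treated cells (SE 0.39, adjusted p = 9.23e-05) and -2.91 in control cells (SE 0.39, adjusted p = 8.46e-05). Syn3, the form of early neuronal development, was lower, with differences of -2.52 in treated and -2.47 in control cells, while Syn2 differed by -0.70 in treated and -0.66 in control cells, the smallest difference among the lower members. Syn2 was at 6.27, 6.32, 6.58, 6.30 and 6.21 on treated arrays 1 to 5 and at 6.29, 6.38, 6.56, 6.51 and 6.17 on control arrays 1 to 5, against 7.05, 6.78 and 7.06 on E14.5 arrays and 6.97, 7.15 and 7.21 on E13.5 arrays, so that arrays 5 held the lowest treated and control values for this gene.

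Syp (synaptophysin), the most abundant protein of the vesicle membrane by textbook account, was at 6.81, 5.92, 6.12, 6.50 and 8.97 on treated arrays 1 to 5 and at 7.21, 6.20, 6.03, 6.31 and 8.25 on control arrays 1 to 5, against 9.20, 9.51 and 9.98 on E14.5 arrays and 9.68, 9.28 and 9.56 on E13.5 arrays. Treated array 5 stood just below the lowest primary array and the other treated arrays far below. Its difference was -2.67 in treated cells (SE 0.74, adjusted p = 0.0125) and -2.73 in control cells (SE 0.74, adjusted p = 0.011). Sypl (pantophysin) is its broadly expressed relative outside neurons. It was at 8.98, 8.80, 9.01, 9.0 and 8.6 on treated arrays 1 to 5 and at 8.98, 8.71, 8.72, 8.99 and 8.52 on control arrays 1 to 5, against 7.32, 7.51 and 7.86 on E14.5 arrays and 7.38, 7.0 and 7.45 on E13.5 arrays, with every iPSC-derived array above every primary one. Its difference was 1.46 in treated cells (SE 0.16, adjusted p = 1.46e-05) and 1.37 in control cells (SE 0.16, adjusted p = 2.39e-05).

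Sv2a, the vesicle glycoprotein bound by the drug levetiracetam, was at 6.10, 6.43, 6.15, 5.96 and 8.18 on treated arrays 1 to 5 and at 6.46, 6.19, 6.28, 6.53 and 7.65 on control arrays 1 to 5, against 8.87, 9.10 and 9.70 on E14.5 arrays and 9.46, 9.15 and 9.05 on E13.5 arrays. Arrays 5 were again the highest of each group, and all 10 lay below the primary arrays. Its difference was -2.66 in treated cells (SE 0.53, adjusted p = 0.00164) and -2.60 in control cells (SE 0.53, adjusted p = 0.00189). Sv2b, a close relative, differed by -1.1 in treated and -1.18 in control cells and passed in both, with treated array 5 above the lowest primary array. Sv2c, the relative that is prominent in the basal ganglia, did not pass, at 5.06, 4.75, 5.30, 4.97 and 6.26 on treated arrays 1 to 5 and at 4.53, 5.20, 5.41, 4.86 and 5.82 on control arrays 1 to 5, against 5.63, 6.85 and 6.47 on E14.5 arrays and 5.31, 5.95 and 5.86 on E13.5 arrays. Both arrays 5 lay within the primary range of Sv2c, and of the other 8 iPSC-derived arrays only control array 3 reached it. Its difference was -0.74 in treated cells (SE 0.39, adjusted p = 0.144) and -0.85 in control cells (SE 0.39, adjusted p = 0.0984).

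Among SNARE proteins and their regulators, 3 of 6 were lower and 3 did not pass. Snap25, a SNARE protein of the plasma membrane, was at 6.27, 5.80, 5.79, 5.63 and 8.76 on treated arrays 1 to 5 and at 6.74, 6.09, 5.83, 6.04 and 8.59 on control arrays 1 to 5, against 10.50, 10.57 and 9.64 on E14.5 arrays and 10.40, 10.46 and 9.13 on E13.5 arrays. The primary arrays themselves differed, with E14.5 array 3 and E13.5 array 3 below the other 4. All iPSC-derived arrays were below all primary arrays, and the difference was -3.67 in treated cells (SE 0.84, adjusted p = 0.00406) and -3.46 in control cells (SE 0.84, adjusted p = 0.00583). Stx1a (syntaxin 1A), the other plasma membrane SNARE, was at 6.21, 6.27, 6.33, 6.65 and 7.27 on treated arrays 1 to 5 and at 6.36, 6.00, 6.53, 6.29 and 6.90 on control arrays 1 to 5, against 8.04, 7.95 and 7.92 on E14.5 arrays and 7.85, 7.98 and 8.30 on E13.5 arrays. Its difference was -1.46 in treated cells (SE 0.27, adjusted p = 0.00108) and -1.59 in control cells (SE 0.27, adjusted p = 0.000561). The pair of complexins, which clamp and release SNARE complexes, split. Cplx1 was lower, with differences of -1.45 in treated and -1.47 in control cells, and Cplx2 differed by -0.40 in treated and -0.27 in control cells and did not pass.

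Vamp1, a vesicle SNARE of brainstem and spinal neurons, differed by 0.13 in treated and 0.21 in control cells and did not pass. Stxbp5 (tomosyn), which sequesters SNARE proteins and inhibits release, differed by -0.72 in treated and -0.70 in control cells and did not pass either, with adjusted p = 0.064 and 0.0695. The iPSC-derived and primary arrays of these 3 genes overlapped. Cplx2 was at 7.22 ± 0.29 in treated cells and 7.34 ± 0.16 in control cells (SD, n = 5 each), against 7.61, and Stxbp5 at 7.45 ± 0.30 in treated cells and 7.47 ± 0.49 in control cells, against 8.17.

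Among active zone and priming factors, 7 of 8 were lower, and Unc13a went in different directions by probe set. Cadps (CAPS1), which primes dense-core and synaptic vesicles, was at 5.20, 4.81, 5.43, 5.13 and 7.05 on treated arrays 1 to 5 and at 5.41, 5.24, 5.68, 5.39 and 6.41 on control arrays 1 to 5, against 9.73, 9.77 and 9.99 on E14.5 arrays and 9.84, 9.78 and 9.61 on E13.5 arrays. Its difference was -4.26 in treated cells (SE 0.49, adjusted p = 2.35e-05) and -4.16 in control cells (SE 0.49, adjusted p = 2.73e-05), with no overlap between iPSC-derived and primary arrays. Its relative Cadps2 was lower, with differences of -0.91 in treated and -1.14 in control cells, with iPSC-derived and primary arrays overlapping. Erc2 (CAST), an active zone scaffold that binds RIM, was at 5.48, 5.29, 5.37, 5.4 and 7.69 on treated arrays 1 to 5 and at 5.95, 5.54, 5.30, 5.84 and 7.48 on control arrays 1 to 5, against 9.74, 9.30 and 9.57 on E14.5 arrays and 9.63, 9.75 and 9.58 on E13.5 arrays. It had the most uneven iPSC-derived values of the active zone genes, with arrays 5 far above the other 8 arrays and still below every primary array. Its difference was -3.75 in treated cells (SE 0.65, adjusted p = 0.000599) and -3.57 in control cells (SE 0.65, adjusted p = 0.000841).

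Rims2, a RIM scaffold that ties vesicles to calcium channels, had the smallest adjusted p of all members. It was at 5.78, 6.36, 5.82, 5.71 and 6.35 on treated arrays 1 to 5 and at 5.95, 6.00, 5.81, 5.93 and 5.93 on control arrays 1 to 5, against 8.14, 7.80 and 8.06 on E14.5 arrays and 8.38, 8.06 and 7.87 on E13.5 arrays. Its iPSC-derived arrays were close together, and arrays 5 did not stand apart from them. Its difference was -2.05 in treated cells (SE 0.18, adjusted p = 2.69e-06) and -2.13 in control cells (SE 0.18, adjusted p = 1.89e-06). The related Rims1 differed by -1.85 in treated and -1.86 in control cells. Pclo (piccolo) and Bsn (bassoon), the giant scaffolds of the active zone, were lower too. Pclo was at 5.45, 5.39, 5.61, 5.16 and 6.72 on treated arrays 1 to 5 and at 5.63, 5.32, 5.66, 5.37 and 6.25 on control arrays 1 to 5, against 8.49, 8.33 and 8.46 on E14.5 arrays and 8.50, 8.74 and 8.22 on E13.5 arrays, a difference of -2.79 in treated and -2.81 in control cells, and Bsn differed by -1.49 in treated and -1.60 in control cells.

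Unc13a (Munc13-1), the main priming factor, was the only member with several probe sets with 1 symbol, and these went against each other. The probe set with the highest mean was at 9.05, 9.11, 9.06, 8.90 and 9.18 on treated arrays 1 to 5 and at 9.35, 9.11, 8.78, 8.98 and 9.30 on control arrays 1 to 5, against 8.25, 8.45 and 8.78 on E14.5 arrays and 8.09, 8.48 and 9.67 on E13.5 arrays. Groups overlapped on E13.5 array 3, and its difference was 0.44 in treated cells (SE 0.15, adjusted p = 0.0336) and 0.49 in control cells (SE 0.15, adjusted p = 0.0215). This probe set has 1 accession in the annotation, which is no RefSeq mRNA, while the other 2 list a RefSeq mRNA. In a fit in which each of 21789 probe sets was a feature, the other 2 probe sets were lower. The second was at 6.46, 6.07, 5.78, 5.62 and 7.64 on treated arrays 1 to 5 and at 6.50, 6.78, 5.86, 5.32 and 7.4 on control arrays 1 to 5, against 7.87, 8.52 and 8.28 on E14.5 arrays and 8.11, 7.91 and 8.74 on E13.5 arrays. Its difference was -1.92 in treated cells (SE 0.55, adjusted p = 0.0155) and -1.87 in control cells (SE 0.55, adjusted p = 0.0179). The third was at 6.22, 5.96, 6.20, 6.00 and 7.36 on treated arrays 1 to 5 and at 6.53, 6.13, 5.89, 5.99 and 6.97 on control arrays 1 to 5, against 8.11, 8.06 and 7.97 on E14.5 arrays and 8.39, 7.85 and 8.27 on E13.5 arrays. Its difference was -1.76 in treated cells (SE 0.36, adjusted p = 0.00199) and -1.81 in control cells (SE 0.36, adjusted p = 0.00165). The direction for Unc13a therefore depends on the probe set, and under the mean of the 3 probe sets its difference was -1.08 in treated and -1.06 in control cells. For the probe set with the highest mean, leaving out treated array 1, 2, 3 or 5 alone gave adjusted p between 0.0502 and 0.0561 in treated cells.

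**Figure D2:**
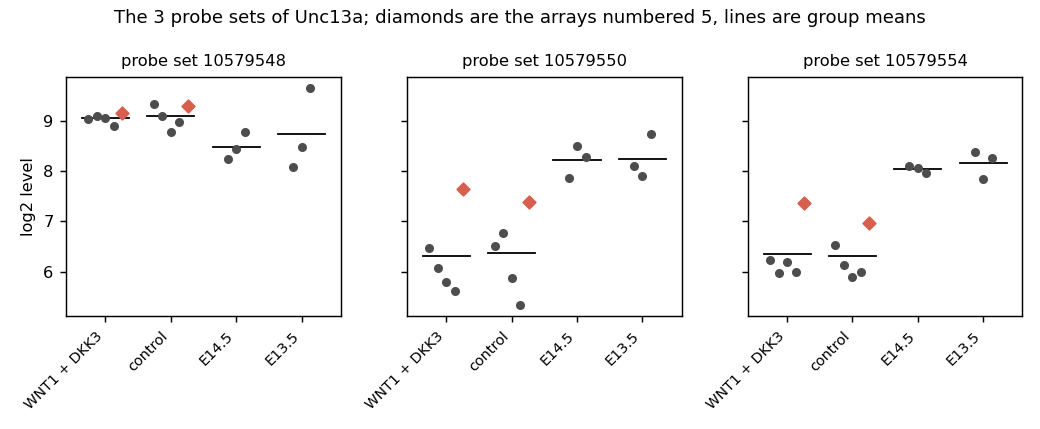
Log2 level of the 3 Unc13a probe sets on every array, by group, with treated and control arrays left of the primary arrays. The first probe set is higher in iPSC-derived cells than on all primary arrays but E13.5 array 3, and the other 2 are lower on all 10 iPSC-derived arrays than on any primary array.

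Both endocytic adaptors were lower. Snap91 (AP180), a neuronal clathrin adaptor that sizes the vesicle, was at 6.86, 6.42, 6.72, 6.72 and 7.84 on treated arrays 1 to 5 and at 6.91, 6.64, 6.48, 6.44 and 7.49 on control arrays 1 to 5, against 9.55, 9.55 and 9.77 on E14.5 arrays and 9.64, 9.76 and 9.53 on E13.5 arrays. No iPSC-derived array reached the lowest primary one. Its difference was -2.72 in treated cells (SE 0.34, adjusted p = 4.83e-05) and -2.84 in control cells (SE 0.34, adjusted p = 3.39e-05). Amph (amphiphysin), which links clathrin and dynamin at the membrane neck, was lower, with differences of -2.28 in treated and -2.25 in control cells.

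The 3 adhesion molecules were also lower. Nrxn3 (neurexin 3), a presynaptic receptor, was at 5.64, 5.48, 5.74, 5.34 and 7.73 on treated arrays 1 to 5 and at 5.9, 5.42, 5.56, 5.49 and 7.05 on control arrays 1 to 5, against 10.13, 9.86 and 10.07 on E14.5 arrays and 10.03, 10.12 and 9.14 on E13.5 arrays. Arrays 5 lay between both sets, as for Syt4. Its difference was -3.91 in treated cells (SE 0.58, adjusted p = 0.000187) and -4.01 in control cells (SE 0.58, adjusted p = 0.000151). Nrxn2 differed by -1.80 in treated and -1.86 in control cells. Nlgn1 (neuroligin 1), the postsynaptic partner of neurexins at excitatory synapses, was at 5.59, 4.97, 5.49, 5.19 and 5.12 on treated arrays 1 to 5 and at 5.03, 5.56, 5.76, 5.07 and 5.67 on control arrays 1 to 5, against 7.19, 7.07 and 7.27 on E14.5 arrays and 7.60, 6.95 and 6.74 on E13.5 arrays. Its iPSC-derived arrays showed no high array 5, and its difference was -1.87 in treated cells (SE 0.22, adjusted p = 3.05e-05) and -1.72 in control cells (SE 0.22, adjusted p = 5.63e-05).

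**Figure D3:**
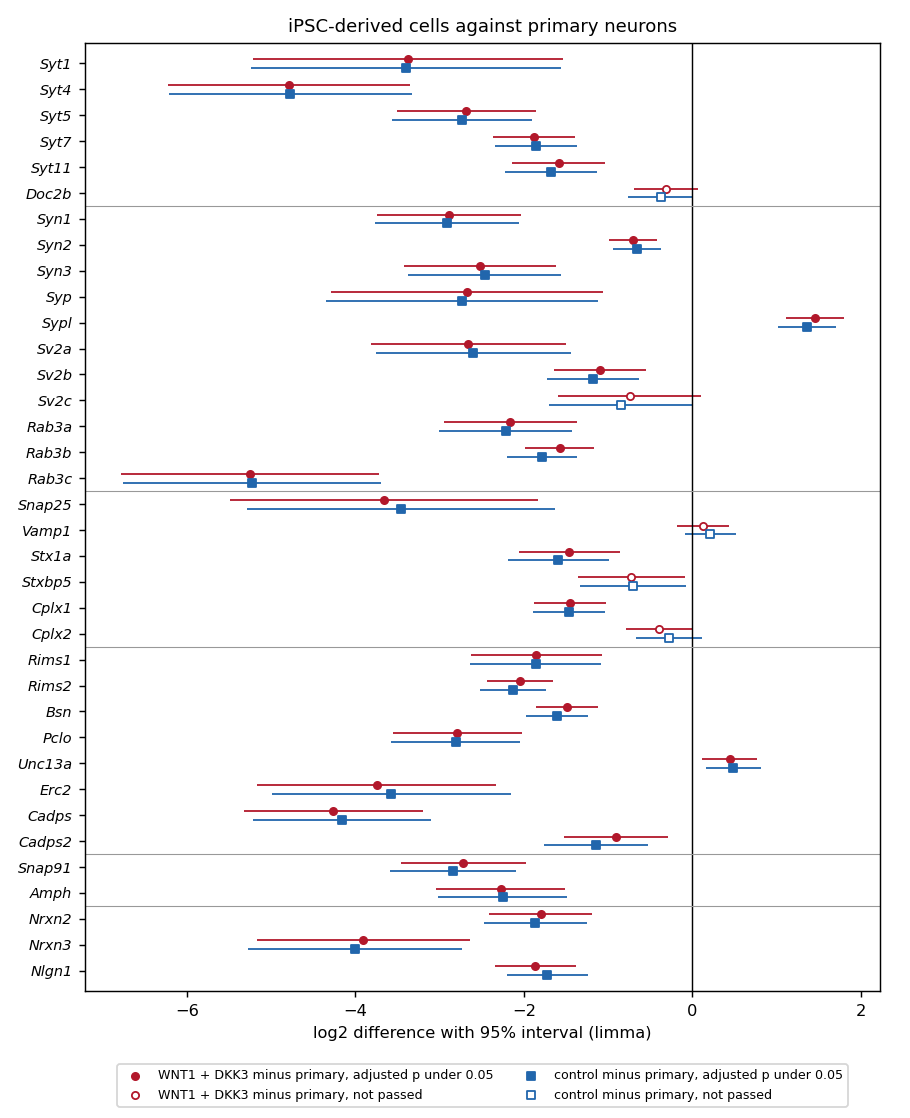
Log2 difference from primary neurons with its 95% interval for the 36 genes (y axis, by role), treated cells as red circles above control cells as blue squares. Filled symbols passed an adjusted p of 0.05 in limma, open ones did not. Sypl and the Unc13a probe set with the highest mean lie right of 0 (the other 2 Unc13a probe sets, not drawn, were lower), and Doc2b, Sv2c, Vamp1, Stxbp5 and Cplx2 are open in both comparisons.

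Other neuronal genes of the same pathway were mostly lower as well. Of 62 measured genes, 43 were lower, 1 higher and 18 not passed in treated cells (median -1.14), and 45 were lower, 1 higher and 16 not passed in control cells (median -1.19). Over all genes 21.3% were lower in treated cells (median -0.09) and 22.5% in control cells (median -0.11). Among vesicle transporters, Slc18a2, which loads dopamine, differed by -4.66 in treated and -4.70 in control cells, and Slc17a6, which loads glutamate, by -4.17 in treated and -4.10 in control cells. Among SNARE partners, Napb, a factor that recycles SNARE complexes, differed by -2.94 in treated and -2.80 in control cells. Stxbp5l, the close relative of Stxbp5, differed by -2.31 in treated and -2.25 in control cells, with adjusted p = 3.25e-08 and 3.72e-08.

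At the active zone, Ppfia2 (liprin-α2), a scaffold, differed by -3.18 in treated and -3.10 in control cells and Cacna1b, the pore of N-type calcium channels, by -2.60 in treated and -2.73 in control cells. In endocytosis, the dynamins Dnm3 and Dnm1 differed by -2.51 and -1.66 in treated and by -2.52 and -1.79 in control cells. In adhesion, the postsynaptic proteins Lrrtm2 and Lrrtm3 differed by -2.97 and -1.70 in treated and by -2.92 and -1.87 in control cells. Of the other synaptotagmins, Syt17 differed by -2.36 in treated and -2.40 in control cells, Syt13 by -2.11 in treated and -2.28 in control cells and Syt12, the 1 higher gene, by 0.60 in treated and 0.75 in control cells.

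Broadly expressed relatives of the machinery, which serve fusion in most cells, gave other counts. This list, too, was chosen with earlier results of these data known, so the contrast is descriptive. Of 18 measured, 12 were higher and 0 lower in treated cells (median 0.73), and 11 were higher and 0 lower in control cells (median 0.58), by the same limma fit. Over all genes 19.9% were higher and 21.3% lower in treated cells, and 19.3% higher and 22.5% lower in control cells. With an unadjusted p under 0.05, 15 of 18 differed in treated and 14 in control cells, as did 10100 and 10307 of all 19938 genes. Vamp8 (endobrevin), a SNARE of secretory and immune cells, was at 10.34 ± 0.31 in treated cells and 10.42 ± 0.37 in control cells (SD, n = 5 each), against 5.20 in primary neurons, a difference of 5.14 in treated cells (SE 0.25, adjusted p = 2.63e-08) and 5.22 in control cells (SE 0.25, adjusted p = 2.23e-08). Syngr2, a synaptogyrin of non-neuronal cells, was at 9.62 ± 0.22 in treated cells and 9.53 ± 0.46 in control cells, against 6.22. Sypl, pantophysin, moved in the same direction as these relatives.

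The 36 genes did not vary alike among the iPSC-derived arrays. Array 5 was the highest of its group in both iPSC-derived groups for 24 of 36 genes, as for 2899 of all 19938 genes. It stood at least 1 above the mean of the other 4 arrays for 18 genes in treated and 11 in control cells, and for 11 in both, beside 503, 349 and 269 of all 19938 genes. Nothing in the labels sets the arrays numbered 5 apart. Pluripotency markers averaged 5.48 on treated array 5 and 5.51 on control array 5, against 7.21 to 8.62 on the other 8 iPSC-derived arrays.

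How far array 5 had moved from the mean of its other 4 arrays towards the primary mean differed by gene. This share of the log2 distance was 82.2% for treated array 5 and 58.4% for control array 5 for Syp, 71.6% for treated array 5 and 63.2% for control array 5 for Syt1 and 68.1% for treated array 5 and 61.4% for control array 5 for Snap25. It was 54.8% for treated array 5 and 46.3% for control array 5 for Erc2, 45.3% for treated array 5 and 30.8% for control array 5 for Rab3c and 41.2% for treated array 5 and 22.6% for control array 5 for Cadps. Among these examples Rims2, Rab3b and Nlgn1 had the smallest shares, without a clear break from Cadps on control array 5. The share was 20.4% for treated array 5 and 0.423% for control array 5 for Rims2, 6.2% for treated array 5 and 19.3% for control array 5 for Rab3b and -10.1% for treated array 5 and 17.4% for control array 5 for Nlgn1, where a share below 0 means array 5 lay farther from primary neurons than the other 4. Over the 10 pan-neuronal markers it ran from -8.71% (Nefm) to 82.6% (Gap43) in treated and from -16.5% (Nefm) to 78.4% (Gap43) in control cells, and over the 9 dopaminergic markers from 4.88% (Foxa2) to 104% (Aldh1a1) in treated and from 4.48% (Foxa2) to 87.3% (Slc6a3) in control cells.

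**Figure D4:**
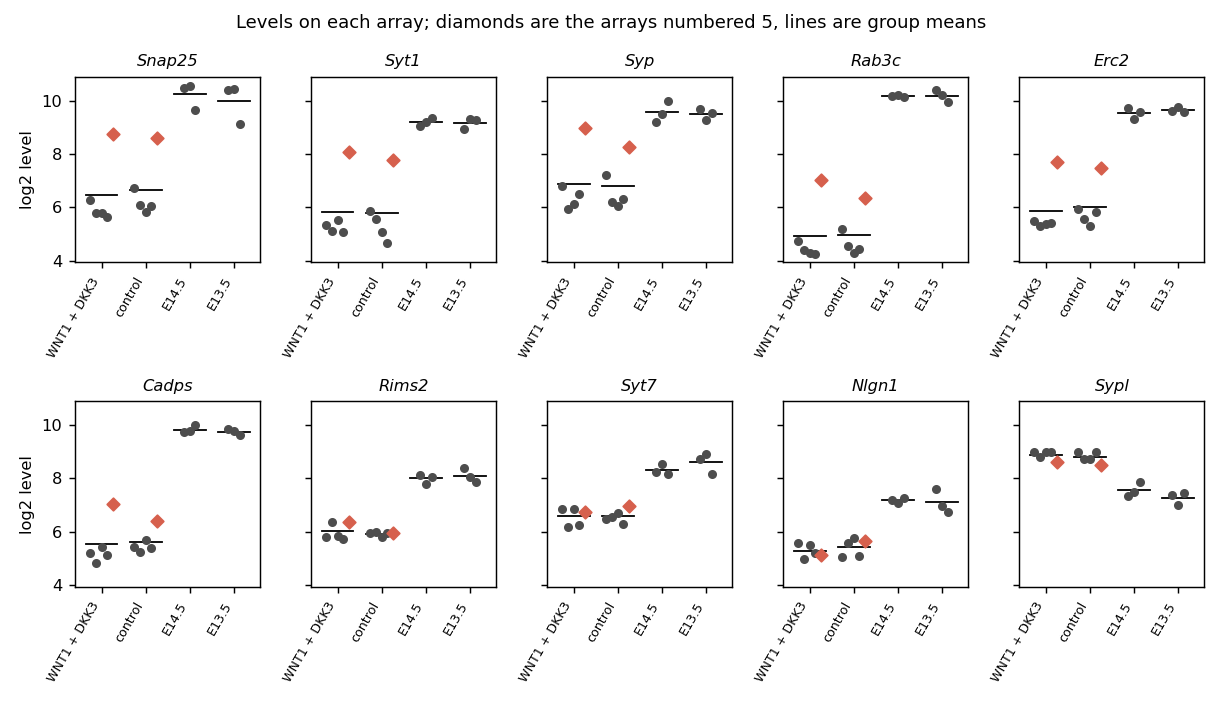
Log2 level of selected members on each array (points), treated and control arrays left of E14.5 and E13.5 arrays, with lines for the group means and diamonds for the arrays numbered 5. For Syt1, Snap25 and Syp, array 5 of each iPSC-derived group lies well above the other 4, and for Rims2 it does not.

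Leaving out array 5 of both iPSC-derived groups was decided with the values in view; 32 members were then lower and 2 higher in both comparisons. In treated cells 22.8% of all genes were then lower and in control cells 23.6%, and the median of the members was -2.06 in treated and -1.95 in control cells. The members that came to pass were Doc2b, Sv2c and Stxbp5. Doc2b differed by -0.43 (adjusted p = 0.0136) in treated and -0.42 (adjusted p = 0.0159) in control cells, Sv2c by -0.99 (adjusted p = 0.00764) in treated and -1.01 (adjusted p = 0.00697) in control cells and Stxbp5 by -0.78 (adjusted p = 0.0253) in treated and -0.86 (adjusted p = 0.0158) in control cells. A single array was enough for some of these calls. Without treated array 5 alone, Doc2b had adjusted p = 0.0178 in treated and 0.0295 in control cells, and Sv2c 0.0219 and 0.0373. Without control array 5 alone, Sv2c had 0.0477 in control cells and Stxbp5 had 0.0323 in treated and 0.0167 in control cells, and without control array 2 alone Stxbp5 had 0.0489 in control cells. Vamp1 and Cplx2 did not pass with or without these arrays.

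The second question was whether WNT1 and DKK3 changed the release machinery of the iPSC-derived cells. Of the 36 genes, 0 were higher and 0 lower in treated than in control cells by limma, where 0% of all genes were higher and 0% lower. With an unadjusted p under 0.05 it was 0 of 36 members and 300 of 19938 genes. The differences of the members ran between -0.21 and 0.24, with a median of 0.02. The extremes were Cadps2, at 5.64 ± 0.44 in treated cells and 5.4 ± 0.35 in control cells (SD, n = 5 each), with a difference of 0.24 (95% interval -0.25 to 0.73), and Snap25, at 6.45 ± 1.31 in treated cells and 6.66 ± 1.13 in control cells, with a difference of -0.21 (95% interval -1.68 to 1.26).

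Precision differed by gene. The 95% interval lay within 2-fold in either direction for 29 of 36 members (80.6%), beside 97.1% of all genes. Syt1, Snap25, Syp and Rab3c, which were high on array 5 of both groups, had wide intervals. For Syt1 the interval ran from -1.45 to 1.5, so a 2-fold change either way lies within it. The fit did not pair arrays by number, so any variation shared by same-numbered arrays adds to this width. Without the arrays numbered 5 the Syt1 interval ran from -0.58 to 0.49. With all arrays the interval ran from -0.27 to 0.18 for Syn2 and from -0.17 to 0.35 for Sypl. Without the arrays numbered 5 all 36 intervals lay within 2-fold, between -0.76 and 0.63, and 0 members had an unadjusted p under 0.05 (326 genes in all). Leaving these arrays out was decided with the values in view and lowers the spread of genes that were high on them. The narrower intervals therefore do not measure the precision of the comparison. Snap25 was then at 5.87 ± 0.28 in treated and 6.18 ± 0.39 in control cells (SD, n = 4 each).

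**Figure D5:**
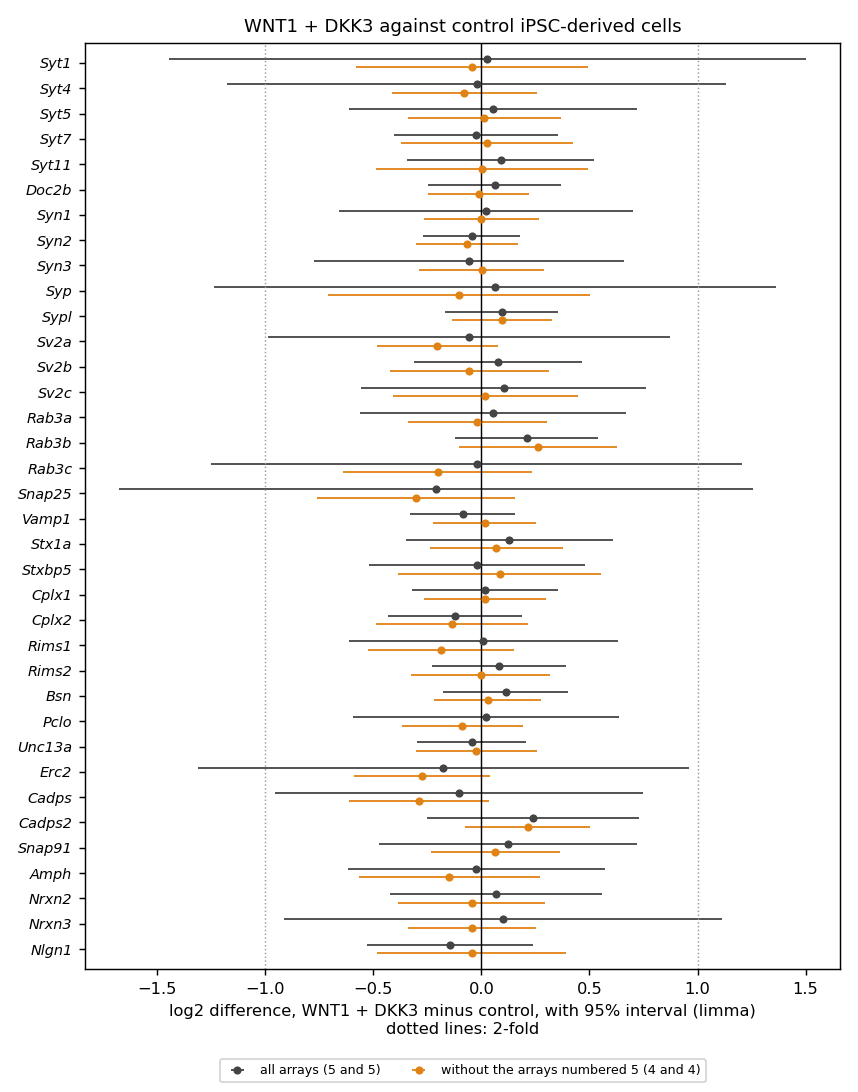
Log2 difference of treated minus control cells with its 95% interval from limma for the 36 genes, with all arrays (dark) and without the arrays numbered 5 (orange). The arrays numbered 5 were left out with the values in view. Dotted lines mark a 2-fold change; every interval includes 0, and with all arrays 29 of 36 lie within 2-fold.

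The last comparison set E14.5 against E13.5 primary neurons, a time when mdDA neurons extend axons to the forebrain. Each stage was 1 sample with 3 technical arrays, so there is no test, and a gene was called where the means differed by at least 1 and the arrays did not overlap. By this rule 0 of 36 members were called, where 0.176% of all genes were higher and 0.0652% lower. Member differences ran between -0.29 for Syt7 and 0.67 for Sv2b, with a median of 0.01.

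For 2 members, both higher at E14.5, every E14.5 array lay above every E13.5 array. Without the condition on size 4.75% of all genes were higher and 4.93% lower without overlap, and 2 of 36 is near that share. Sv2b was at 6.55, 6.84 and 6.92 at E14.5, against 6.45, 6.20 and 5.65 at E13.5. Rab3a was at 9.30, 9.30 and 9.45 at E14.5, against 8.92, 9.28 and 8.30 at E13.5, a difference of 0.52. The lowest E13.5 value of both genes was on array 3.

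E13.5 array 3 stood apart for other members too. Amph was at 9.03, 8.84 and 8.75 at E14.5, against 8.80, 8.67 and 7.61 at E13.5, and Syn3 at 8.57, 8.54 and 8.09 at E14.5, against 8.15, 8.71 and 7.18 at E13.5. The differences of 0.51 for Amph and 0.38 for Syn3 thus came with 1 low array. Sv2c differed by 0.61, at 5.63, 6.85 and 6.47 at E14.5, against 5.31, 5.95 and 5.86 at E13.5, with overlapping arrays.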

How the data were processed

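Total RNA of 16 samples was labelled with biotin and hybridised to Affymetrix arrays, per the labels' protocols. The deposited values are log2 signals, made by the authors with RMA in Affymetrix Expression Console 1.2, per the submitters' processing notes; whether all arrays were normalized together is not given in the sources used here. Of 35556 probe sets, 21789 list exactly 1 gene symbol, 1621 list several and 12146 are not listed; 21698 symbols were updated through RefSeq. For each of 19938 genes the probe set with the highest mean over 16 arrays was used. The arrays of each embryonic stage were averaged to 1 sample (primary, n = 2). limma 3.58.1 (R 4.3.3; lmFit, eBayes, Benjamini-Hochberg 0.05) was fitted over all genes, on 10 arrays for treated against control (8 residual degrees of freedom) and on 12 samples in 3 groups for the primary comparisons (9), after checking the code on simulated data. P-values between primary and iPSC-derived cells rest on 2 primary samples, and precision is limited by the number of arrays.

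Members and gene lists were chosen with earlier results of these data known. Named genes are all members; in each other pathway list, the 2 with the largest difference per direction that passed in control against primary; and Th, Slc6a3, Tubb3, Dcx, Nanog, Dcn and Gja1 among markers. The alternatives were leaving out arrays, filtering dim genes, other eBayes settings, probe set means, other scalings, a replicate block, a single stage as primary sample and other stage thresholds. Replicate numbers were not taken as pairs.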

Additional observations from a re-analysis of the deposited data

Results flagged for a closer look

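Of 72 sets of 5 arrays (36 genes in 2 iPSC-derived groups), 13 sets in 12 genes had 1 array whose gap to the next, divided by the range, was above Dixon's 95% critical value for 5 samples. All 13 were a high array 5, with 9 in treated and 4 in control cells, and Sv2a was the 1 gene in both. Chance flags about 1 in 20 groups, and genes of 1 array share that array. The rule was run on the members only, so no share over all genes stands beside this count. Against the range of the other 4 treated arrays, treated array 5 had Syt1 at 8.08 against 5.06 to 5.52, Syt4 at 7.55 against 5.12 to 5.51, Sv2a at 8.18 against 5.96 to 6.43, Rab3c at 7.03 against 4.24 to 4.73 and Snap25 at 8.76 against 5.63 to 6.27. It also had Pclo at 6.72 against 5.16 to 5.61, Erc2 at 7.69 against 5.29 to 5.48, Cadps at 7.05 against 4.81 to 5.43 and Nrxn3 at 7.73 against 5.34 to 5.74. Against the range of the other 4 control arrays, control array 5 had Syn1 at 6.96 against 5.71 to 5.96, Syn3 at 6.87 against 5.32 to 5.58, Sv2a at 7.65 against 6.19 to 6.53 and Cadps2 at 5.99 against 5.14 to 5.38. Pan-neuronal markers averaged 8.36 on treated array 5 and 8.02 on control array 5, against at most 6.54 and 6.70 on the other arrays of these groups; their part in these values was not tested.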

How the results depend on the processing

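Of the 36 members, 26 kept their direction and side of the threshold under every alternative in each primary comparison. In control against primary cells 6 members lost their call under at least 1 alternative (Syt1, Syp, Sv2b, Snap25 and Cadps2 with a single stage as the primary sample, adjusted p 0.0503 to 0.0755, and Unc13a) and 4 gained one (Doc2b, Sv2c, Stxbp5 and Cplx2). In treated cells the same genes did so, except that Snap25 kept its call. Unc13a reversed: its difference in control cells was -1.06 under the mean of its probe sets and -1.87 and -1.81 for its other 2 probe sets, and in treated cells -1.08, -1.92 and -1.76. No member passed in treated against control under any alternative, and 29 changed sign in at least 1. The replicate block gave 1 higher gene there (0 without it) and changed no other call. Deviations of same-numbered arrays correlated at 0.04 for number 1 and 0.44 to 0.80 for numbers 2 to 5. Best correlation was with their own number for 3 of 5 treated and 4 of 5 control arrays. Deviations were taken from each group's mean, so a distinct array 5 also enters the deviations of arrays 1 to 4. The correlations therefore do not settle whether numbers 2 to 4 mark pairs, and they do not justify leaving the block out. The intervals given come from the fit without the block, so any variation shared by same-numbered arrays adds to their width. Genes lower in control cells numbered 4491, and 8833 with arrays shifted to the same median, 2847 with E13.5 and 2743 with E14.5 as the primary sample; in treated cells they numbered 4241, and 8787, 2722 and 2622. Members higher numbered 2 in control cells, and 1 under the mean of probe sets, the same median, quantile normalization, E13.5 as the primary sample and a fit of these groups alone. In treated cells they also numbered 2, and 1 under the first 4 of these and with E14.5, and 1 to 2 leaving out 1 array each (1 without treated array 1, 2, 3 or 5). Broadly expressed relatives higher in control cells numbered 11, and 7 with E13.5 as the primary sample. At E14.5 against E13.5, genes higher numbered 35, with 207 at 1.5-fold and 49 to 70 leaving out 1 array each; genes lower numbered 13, with 113 at 1.5-fold, 20 with no condition on overlap and 19 to 38 leaving out 1 array each; 1 member, Sv2b, was higher at 1.5-fold. The causes were not tested. Limits are the 2 primary samples, 1 per stage, technical arrays within a stage, and signals near background for the dimmest members, Rab3c above all.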
